A study of Mus musculus with 30 samples.

Results

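The 8 genes described here, Ankrd1, Ankrd2, Ankrd23, Csrp3, Xirp1, Xirp2, Nrap and Flnc, encode proteins of the muscle sarcomere and its attachments and are known as genes that respond to stretch and load. They were taken by symbol from the deposited tables, which hold 56951 gene symbols, and each stood on 1 row. All 8 were among the 12030 genes tested, which on average had over 20 reads and over 0.5 FPKM (fragments counted on exons, scaled to exon length and library total). Poly(A)-enriched RNA had been sequenced from the gastrocnemius muscle, with the plantaris attached, in 14 LD and 16 ADV mice, with 1 library per mouse. All animals were male wild-type mice of the C57BL/6J strain, housed singly with a running wheel, and were 14 weeks old when the schedules began. LD mice stayed on 12 h of light and 12 h of darkness throughout, and for ADV mice the same cycle was moved 8 h earlier once in 4 days. Muscle was taken after 64 weeks on these schedules.

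The muscle ankyrin repeat proteins, encoded by Ankrd1, Ankrd2 and Ankrd23, bind the elastic I-band region of titin and can also enter the nucleus, and are known as links between the stretch of the sarcomere and gene expression. Csrp3, Xirp1, Xirp2, Nrap and Flnc act around the Z-disc, the costamere and the ends of the fiber, where thin filaments are anchored and force leaves the cell. In skeletal muscle, Ankrd2 and Csrp3 are known to be higher in slow fibers, which carry the slow myosin heavy chain Myh7. The transcription factor Atf3 is induced rapidly by many kinds of cell stress and by muscle activity.

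Each library had from 18875468.5 to 28512674 read pairs on exons. The share on exons was 91.2 ± 0.119% (mean ± SD, n = 14) in LD mice and 91.5 ± 0.373% (n = 16) in ADV mice. The libraries had the profile of a fast muscle: the summed FPKM of 9 fast fiber genes was 60561 to 86461 across the ADV mice and 62535 to 85800 across the LD mice, against 68.3 to 2398 for 10 slow fiber genes over all mice. Of 5 heart muscle markers only Tnnt2 passed the filter, and their summed FPKM was 1.41 to 4.33 over all mice. In bulk RNA, fewer cells of a type and less RNA per cell cannot be told apart.

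Of the 8 genes, 5 were higher in the ADV group, with an FDR under 0.05 (edgeR's quasi-likelihood test, Benjamini-Hochberg adjustment) and more than 1.3-fold. None was lower. Over all genes tested, 1.45% were called higher and 0.648% lower by the same rule. The members, and the lists used below, were chosen with earlier results of these data known. Counts set beside such shares are therefore descriptions and carry no test. Xirp1 differed most, at 2.65-fold, followed by Csrp3 at 2.32-fold, Ankrd1 at 2.00-fold, Ankrd2 at 1.70-fold and Flnc at 1.52-fold. Nrap, Ankrd23 and Xirp2 were not called. The median log2 fold change was 0.69 over the 8 genes and 0.00 over all genes tested. The levels of the 2 groups overlapped for every member, as the plot of FPKM by mouse shows.

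**Figure D1:**
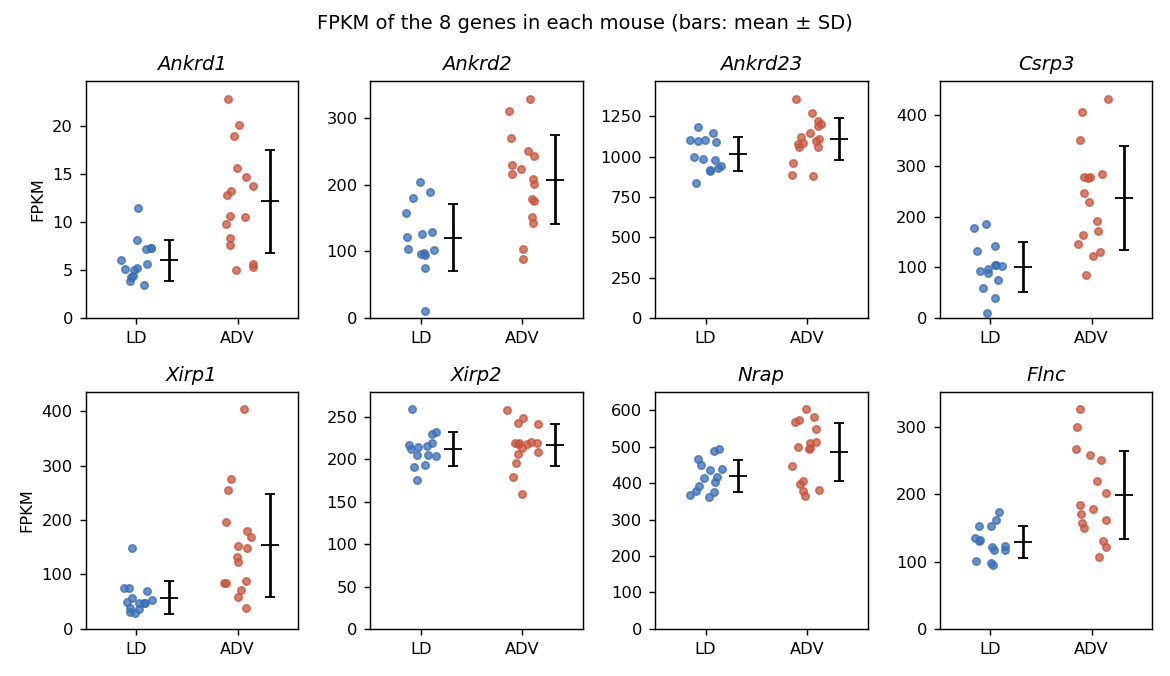
FPKM (vertical axes, from 0) of each of the 8 genes in each mouse of the LD group (blue, n = 14) and of the ADV group (red, n = 16), with mean ± SD as black bars. The ADV points of Xirp1 reach from 39.1 to 403 FPKM and those of the LD mice from 29.9 to 148, whereas the points of Xirp2 lie between 159 and 259 FPKM over both groups.

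Per length of transcript, Ankrd23 was the most abundant member at a mean of 1065 FPKM over all libraries, and Nrap followed at 455 and Xirp2 at 215. Csrp3, Ankrd2 and Flnc lay close together at 174, 167 and 167 FPKM, and their ranges over the mice overlapped. Their order depended on the group: Csrp3 was below Flnc and Ankrd2 in LD mice (101, 129 and 121 FPKM) and above both in ADV mice (237, 199 and 207 FPKM), where it was also above Xirp2 (217 FPKM). Xirp1 averaged 109 FPKM. Ankrd1 was the lowest by far at 9.32 FPKM, from a mean of 454 reads per library.

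Ankrd1 (chr19:36089365-36097499 in GRCm39, minus strand, 9 exons) encodes the ankyrin repeat protein also known as CARP, which is most abundant in the heart and low in healthy skeletal muscle. In LD mice its level was lowest at 3.41, had a median of 5.45 and was highest at 11.5 FPKM, and in ADV mice it was lowest at 5.04, had a median of 11.7 and was highest at 22.9 FPKM. The LD median was exceeded by 14 of 16 ADV mice and the whole LD range by 8, and the lowest ADV level, in mouse 22, was inside the LD range. The means were 6.04 ± 2.12 FPKM (SD, n = 14) and 12.2 ± 5.36 FPKM (n = 16), a log2 fold change of 0.997 with a standard error of 0.20 and an FDR of 0.00346. On the other strand, Gm56671 overlaps 26.3% of the exon bases of Ankrd1, and the counting's use of strand is not given in the sources used here.

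The RefSeq promoter of Ankrd1, the 250 bases before its RefSeq start, is shown for its MCAT motifs, CATTCC on either strand, the element that TEAD factors bind. This motif occurred in 10.6% of 8971 RefSeq promoters read in the same way, and of the 7 members with a RefSeq promoter only Ankrd1 held it. It held it at 2 places, starting 210 and 123 bases before the RefSeq start, both read as GGAATG on the gene's strand. The windows below are from GRCm39, minus strand, at chr19:36097437-36097466 and chr19:36097350-36097379, with the motif in capitals. Both motifs lie within bases that GENCODE vM39 annotates as exon, counted over all genes on either strand. The Ankrd1 transcript counted here starts further upstream than RefSeq's, at chr19:36097499 on the minus strand. Both motifs therefore lie within the span of that transcript and not before its start.
Ankrd1 window at 210 bases: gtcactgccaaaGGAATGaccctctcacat
Ankrd1 window at 123 bases: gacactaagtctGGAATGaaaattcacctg

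Ankrd2 (chr19:42024439-42033549, plus strand, 9 exons) encodes the ankyrin repeat protein of slow fibers. Its FPKM was 10.8 at the lowest, 112 at the median and 204 at the highest LD mouse, and 88.3, 212 and 329 in the same order for the ADV mice. LD mouse 23 stood far below the other LD mice, whose lowest was 75.8, and 9 of 16 ADV mice were above every LD mouse. The means were 121 ± 50.4 FPKM (SD, n = 14) and 207 ± 66.9 FPKM (n = 16), and the log2 fold change was 0.77 with a standard error of 0.23 and an FDR of 0.0310. Leaving out each library in turn gave log2 fold changes of 0.67 to 0.84, and the FDR passed 0.05 narrowly in 2 of 30 such fits, without ADV mouse 24 (log2 fold change 0.71, FDR 0.0509) and without LD mouse 28 (0.75, FDR 0.0513). It was also lost when the trend with GC content was removed from each library (log2 fold change 0.66, FDR 0.0782).

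Ankrd23 (chr1:36569615-36574820, minus strand, 9 exons), the third of the titin-binding ankyrin genes, ranged in LD mice from 840 over a median of 991 to 1185 FPKM, and in ADV mice from 881 over 1103 to 1360 FPKM. The groups overlapped, with 13 of 16 ADV mice above the LD median and 5 above every LD mouse. The log2 fold change was 0.11 with a standard error of 0.06 and an FDR of 0.212, and 2 standard errors around it span 0.99-fold to 1.17-fold. Gm42417 shares 83.3% of the exon bases of Ankrd23 on the same strand, so reads of the 2 cannot be told apart. Of the 3 ankyrin genes, then, the pair with lower levels rose in the ADV group, and the difference in Ankrd23 did not pass the test.

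Csrp3 (chr7:48480148-48497781, minus strand, 6 exons) encodes muscle LIM protein, a Z-disc and nuclear protein. In the LD group it was at 10.4 FPKM in the lowest mouse, 100 at the median and 186 in the highest, and in the ADV group at 85.4, 238 and 433. As for Ankrd2, LD mouse 23 was the lowest and LD mouse 31 the highest of its group, and 10 of 16 ADV mice exceeded every LD mouse. The means were 101 ± 48.5 FPKM (SD, n = 14) and 237 ± 102 FPKM (n = 16), with a log2 fold change of 1.22, a standard error of 0.27 and an FDR of 0.00540.

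The Xin proteins bind and stabilize actin filaments and bind filamin C. Xirp1, which encodes Xin itself, is known to rise in damaged and regenerating fibers, and Xirp2 encodes a larger relative that is abundant in uninjured muscle. Xirp1 (chr9:119842821-119852664, minus strand, 3 exons) was at 29.9, 48.3 and 148 FPKM in the lowest, median and highest LD mouse and at 39.1, 140 and 403 FPKM in the ADV mice. LD mouse 26 stood far above the other LD mice, whose highest was 75.3, and 8 of 16 ADV mice were above even that mouse. The means were 57.6 ± 29.8 FPKM (SD, n = 14) and 154 ± 94.6 FPKM (n = 16), and the log2 fold change of 1.41 had a standard error of 0.28 and an FDR of 0.00276.

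Xirp2 (chr2:67276346-67356950, plus strand, 9 exons) was at 176, 213 and 259 FPKM in the lowest, median and highest LD mouse and at 159, 219 and 259 FPKM in the ADV mice. The ranges of the groups overlapped almost wholly, and the lowest mouse was an ADV mouse. The log2 fold change was 0.01 with a standard error of 0.05 and an FDR of 0.888, and 2 standard errors around it span 0.94-fold to 1.09-fold. The relatives Xirp1 and Xirp2 thus had different results in the same libraries, although the difference between their fold changes was not tested.

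The stretch before the start of Xirp2 is shown because, of the 7 members with a RefSeq promoter, only this one held the AP-1 motif TGANTCA, which is the same on both strands and which dimers of the family of Atf3 and Jun bind. The motif started 107 bases before the RefSeq start and is in capitals below, in GRCm39 at chr2:67276096-67276300, plus strand. It occurred in 4.07% of 8971 promoters. A site of MEF2 type was 74 bases before the same start, and 0.546% of promoters held such a site. The CRE motif TGACGTCA, found in 2.78% of promoters, and the CArG box, found in 1.19%, were in none of the 7. E-boxes (CANNTG on both strands) were in 56.4% of all promoters and in those of Ankrd1, Ankrd2, Csrp3, Xirp2 and Nrap. Xirp1 has no entry among the promoters used. A match of letters is a description and not a site.
Xirp2 stretch before the start: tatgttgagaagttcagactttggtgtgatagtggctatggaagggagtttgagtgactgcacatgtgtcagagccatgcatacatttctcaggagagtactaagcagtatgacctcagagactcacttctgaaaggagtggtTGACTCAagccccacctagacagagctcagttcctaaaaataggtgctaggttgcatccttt

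Nrap (chr19:56308473-56378469, minus strand, 42 exons) encodes a nebulin-related protein of myotendinous junctions and of myofibrils under assembly. Its FPKM was 363, 415 and 493 in the lowest, median and highest LD mouse, and 363, 498 and 602 in the ADV mice. The lowest levels of the groups were the same to 3 digits, while 9 ADV mice were above every LD mouse. The log2 fold change of 0.19 had a standard error of 0.08, with an unadjusted p of 0.0179 and an FDR of 0.0942 by edgeR, so it was not called, and 2 standard errors around it span 1.03-fold to 1.27-fold. Flnc (chr6:29433275-29461882, plus strand, 48 exons) encodes filamin C, the muscle filamin that crosslinks actin at the Z-disc and costamere and is turned over by chaperones under load. It was at 95.1, 126 and 173 FPKM in the lowest, median and highest LD mouse and at 107, 182 and 326 FPKM in the ADV mice. The LD median was exceeded by 14 of 16 ADV mice and every LD mouse by 9. The means were 129 ± 23.8 FPKM (SD, n = 14) and 199 ± 65.2 FPKM (n = 16), with a log2 fold change of 0.61, a standard error of 0.14 and an FDR of 0.00730.

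Myh7, the myosin of slow fibers, was at 3.88, 44.7 and 91.7 FPKM in the lowest, median and highest LD mouse and at 15.7, 50.4 and 233 FPKM in the ADV mice. The lowest was LD mouse 23 and the highest ADV mouse 24. The groups overlapped widely, and the log2 fold change of 0.46 had a standard error of 0.37 and an FDR of 0.416. All 10 slow fiber genes had a positive log2 fold change, with a median of 0.45, but 0 of 10 had an FDR under 0.05 by edgeR or by DESeq2. By edgeR 0 of 10 had an unadjusted p under 0.05, against 30.1% of all genes tested. The summed FPKM of the slow fiber genes was 68.3 to 1211 in LD mice, with a median of 698, and 305 to 2398 in ADV mice, with a median of 944.

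Within the groups, Csrp3, Ankrd2 and Ankrd1 rose with Myh7. In an edgeR fit with the group and the log2 FPKM of Myh7, centred within each group, the slope was called for these 3 of the 8 members (FDR under 0.05), against 3.77% of 12029 genes with a positive and 1.54% with a negative slope called. Per doubling of Myh7, Csrp3 rose by 0.53 on the log2 scale (standard error 0.09, FDR 0.000715), Ankrd2 by 0.41 (standard error 0.09, FDR 0.00388) and Ankrd1 by 0.30 (standard error 0.07, FDR 0.0126). The slopes of the others were 0.24 for Xirp1, 0.13 for Flnc, 0.08 for Nrap, 0.04 for Xirp2 and 0.03 for Ankrd23, with FDRs of 0.171 to 0.555. As a reference, the slope was called for all 9 of the other slow fiber genes, with a median of 0.85. In ADV mice alone Csrp3 (FDR 0.00885) and Ankrd2 (FDR 0.0141) were called and Ankrd1 was not (FDR 0.0743). In LD mice alone none of these 3 was called, with FDRs of 0.0719 to 0.120.

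In LD mice the Pearson correlation of Csrp3 with Myh7 on the log2(FPKM + 0.1) scale was 0.76 (n = 14, Spearman's rho 0.53, two-sided permutation p 0.00138, adjusted p 0.00491 over 32 relations, rho's adjusted p 0.0938). In ADV mice it was 0.85 (n = 16, rho 0.83, permutation p 2e-05, adjusted 0.00032). For Ankrd2, r was 0.71 in LD mice (rho 0.60, permutation p 0.00197, adjusted 0.00573) and 0.83 in ADV mice (rho 0.71, permutation p 6e-05, adjusted 0.00048). Without the 2 LD mice farthest from the median of Myh7, 23 and 27, r fell to 0.53 for Csrp3 (permutation p 0.0814) and to 0.48 for Ankrd2 (permutation p 0.112). In LD mice neither relation passed without those animals. They were the lowest in Myh7 (3.88 and 6.36 FPKM), so leaving them out also narrows the range of Myh7. Without ADV mice 22 and 24, r stayed at 0.81 for Csrp3 (permutation p 0.00058) and at 0.72 for Ankrd2 (permutation p 0.00313). For Ankrd1, r was 0.64 in LD mice (rho 0.69, permutation p 0.0128, adjusted 0.0272) and 0.70 in ADV mice (rho 0.71, permutation p 0.00164, adjusted 0.00525), and 0.69 and 0.60 without the 2 farthest mice (permutation p 0.0132 and 0.0254, adjusted 0.058 and 0.0813, so neither passed after adjustment).

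For the other 5 members r with Myh7 was higher in ADV than in LD mice except for Xirp2 (0.51 in LD, 0.26 in ADV). It was 0.08 and 0.56 for Ankrd23 (adjusted permutation p 0.771 and 0.0449), 0.27 and 0.59 for Xirp1 (0.381 and 0.0319) and 0.38 and 0.68 for Nrap (0.218 and 0.006). Without the 2 farthest ADV mice the r of these 3 members was 0.40, 0.54 and 0.50, and none passed after adjustment (adjusted permutation p 0.254, 0.135 and 0.147). The r of Flnc was 0.16 in LD mice (permutation p 0.57, rho 0.12) and 0.73 in ADV mice (permutation p 0.00071, adjusted 0.00284, rho 0.69), and 0.50 in ADV mice without the 2 farthest (adjusted 0.147). The slope of Flnc was 0.36 higher in ADV than in LD mice, with an unadjusted interaction p of 0.00287 and an FDR of 0.233 by edgeR, so the difference was not called. The unadjusted interaction p was 0.0381 for Ankrd1, 0.0463 for Nrap, 0.0591 for Xirp1 and 0.121 for Ankrd23, with FDRs of 0.493 to 0.644. Over all genes, 0 interactions with Myh7 passed the FDR of 0.05 in edgeR, the only tool run for it, and 9.41% had an unadjusted p under 0.05. Leaving out LD mouse 23 and ADV mouse 24, a choice made after seeing the data, lowered the genes with a called slope from 639 to 91, and Ankrd2 then had a slope of 0.29 with an FDR of 0.0657, while Csrp3 (0.44, FDR 0.0298) and Ankrd1 (0.40, FDR 0.0310) were still called.

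Of all genes tested, Xirp1 had the lowest p for its slope on Atf3. Atf3 was at 1.63, 3.79 and 18.1 FPKM in the lowest, median and highest LD mouse and at 2.77, 19.4 and 124 FPKM in the ADV mice, a log2 fold change of 2.43. In the same kind of fit with Atf3 in place of Myh7, the slope of Xirp1 was 0.54 per doubling of Atf3 with a standard error of 0.04 and an FDR of 3.17e-10, which ranked 1 by p among 12029 genes. Next by p were Hspa1a, a heat shock protein, Otud1, a deubiquitinase, and Rcan1, an inhibitor of calcineurin. Within LD mice alone, where 2 genes had a called slope on Atf3, Xirp1 was among them (slope 0.51, FDR 0.0123).

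Of the 8 members, 5 had a called slope on Atf3, against 2.05% of 12029 genes with a positive and 0.366% with a negative slope called. Besides Xirp1 these were Ankrd1 (slope 0.33, standard error 0.05, FDR 3.81e-05), Flnc (slope 0.23, standard error 0.04, FDR 0.000189), Csrp3 (slope 0.35, standard error 0.08, FDR 0.00970) and Nrap (slope 0.09, standard error 0.03, FDR 0.0410). Ankrd2 had a slope of 0.20 (FDR 0.244), Ankrd23 of 0.05 (FDR 0.333) and Xirp2 of 0.03 (FDR 0.595). Ankrd1 ranked 24 and Flnc ranked 33 by p. No interaction of the group with Atf3 passed an FDR of 0.05 in edgeR (0 of 12029, and 2.91% at an unadjusted p under 0.05). In LD mice alone Ankrd1, Flnc, Csrp3 and Nrap were not called, with FDRs of 0.482 to 0.830. Nrap was not called in ADV mice alone either (slope 0.10, FDR 0.176).

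The correlation of Xirp1 with Atf3 was 0.88 in LD mice (n = 14, rho 0.80, permutation p 4e-05, adjusted 0.000427) and 0.94 in ADV mice (n = 16, rho 0.92, permutation p 1e-05, the smallest that the permutations can give, adjusted 0.00032). Without the 2 farthest mice it was 0.79 in LD mice and 0.91 in ADV mice. The highest Xirp1 and the highest Atf3 of the LD group were both in mouse 26, and those of the ADV group were both in mouse 25. For Ankrd1, r with Atf3 was 0.68 in LD mice (permutation p 0.00805, adjusted 0.0184, rho 0.69) and 0.82 in ADV mice (permutation p 0.00013, adjusted 0.000693, rho 0.83), and without the 2 farthest mice it was 0.67 and 0.72 (adjusted permutation p 0.058 and 0.0199). For Flnc it was 0.55 in LD mice (permutation p 0.0408, adjusted 0.0652, rho 0.42) and 0.84 in ADV mice (permutation p 0.00011, adjusted 0.000693, rho 0.88), and 0.76 in ADV mice without the 2 farthest (adjusted 0.0198). For Csrp3, r was 0.56 in LD and 0.76 in ADV mice (adjusted permutation p 0.0555 and 0.00261). For Nrap it was 0.47 and 0.64 (adjusted permutation p 0.126 and 0.0184). Without the 2 farthest ADV mice, Csrp3 had 0.60 and Nrap 0.51, and neither passed (adjusted permutation p 0.0813 and 0.147).

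**Figure D2:**
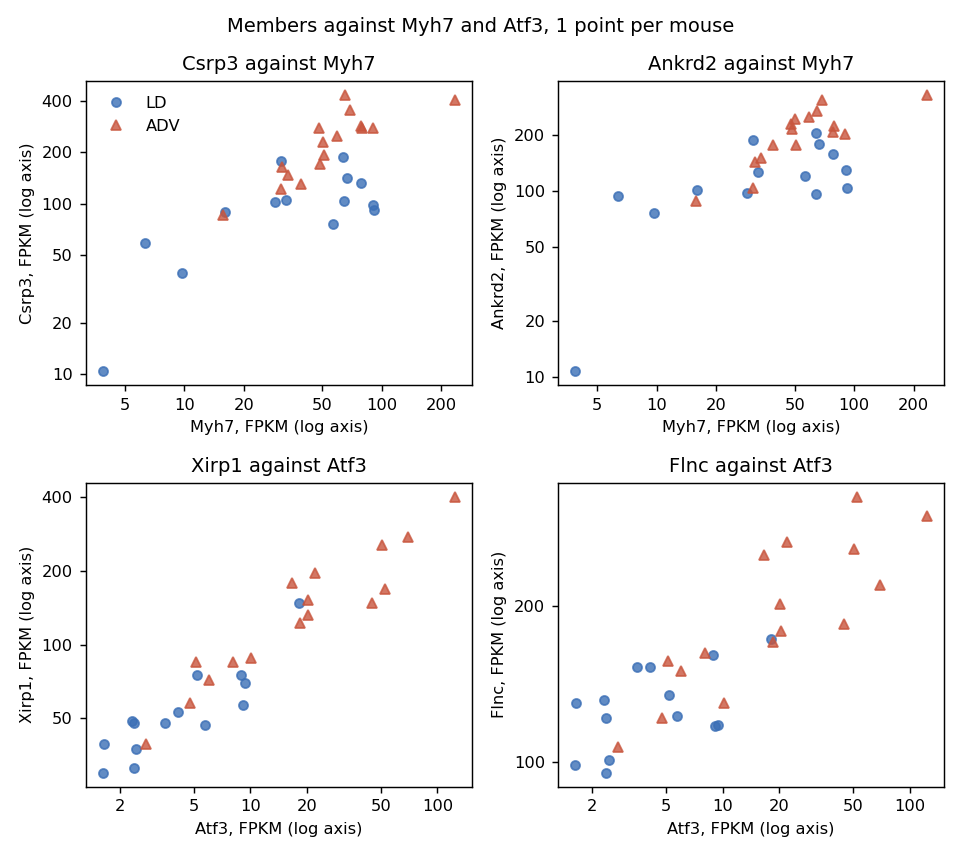
Csrp3 and Ankrd2 against Myh7 (top) and Xirp1 and Flnc against Atf3 (bottom), in FPKM on log axes, with 1 point for each LD mouse (blue circles, n = 14) and ADV mouse (red triangles, n = 16). LD mouse 23, with 3.88 FPKM of Myh7, is the single point at the lower left of both top panels, and the Xirp1 points follow Atf3 in both groups (r = 0.88 and 0.94).

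Myh7 and Atf3 were themselves related, with r = 0.43 in LD mice (permutation p 0.131, rho 0.47) and r = 0.63 in ADV mice (permutation p 0.00799, rho 0.62), so both were put in the same fit. The members then differed in which slopes were called, and differences between the slopes of members were not tested. Csrp3 and Flnc, for example, had the same slope on Atf3 (0.22) and differed in its FDR. Ankrd2 kept its slope on Myh7 (0.37, FDR 0.0151) and had a slope on Atf3 of 0.08 (FDR 0.700), and Csrp3 kept its slope on Myh7 (0.40, FDR 0.00490) with one on Atf3 of 0.22 (FDR 0.0828). Xirp1 had a slope on Atf3 of 0.55 (FDR 2.48e-09) and on Myh7 of -0.05 (FDR 0.694), and Flnc had 0.22 on Atf3 (FDR 0.00193) and 0.01 on Myh7 (FDR 0.917). Ankrd1 was called on Atf3 (0.27, FDR 0.00108) and no longer on Myh7 (0.15, FDR 0.117). Nrap, with 0.08 on Atf3 (FDR 0.157), was called on neither, as were Ankrd23 and Xirp2.

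**Figure D3:**
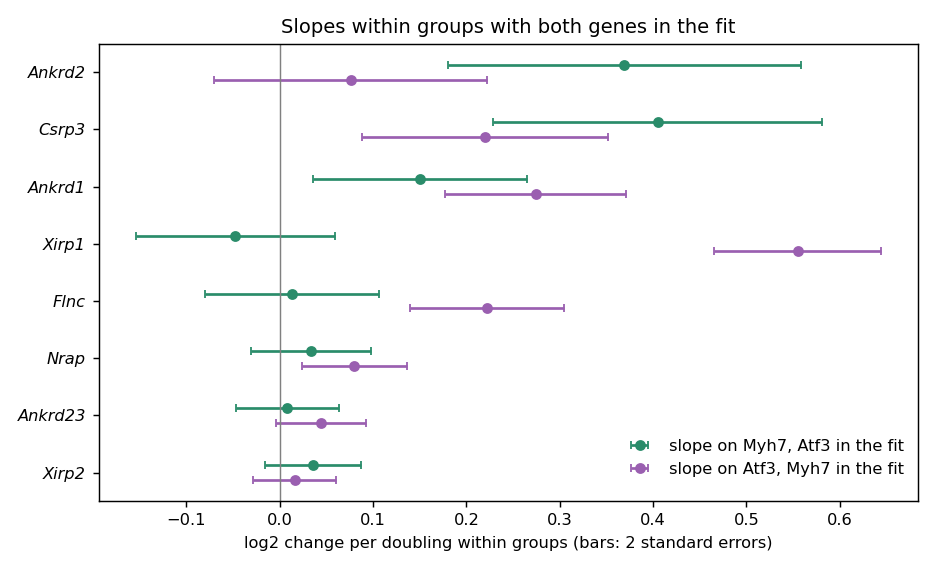
Slopes within groups, in log2 units per doubling of Myh7 (green) or Atf3 (purple), for each member when both genes and the group are in the same edgeR fit, with bars of 2 standard errors. Ankrd2 and Csrp3 have the largest slopes on Myh7, at 0.37 and 0.40, and Xirp1 the largest on Atf3, at 0.55.

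The difference between the groups was then refitted with either gene as a covariate. With Myh7 in the fit, 4 of the 5 calls stayed, with log2 fold changes of 1.19 for Xirp1, 0.85 for Csrp3, 0.77 for Ankrd1 and 0.49 for Flnc and FDRs of 0.0149 to 0.0415, and Ankrd2 was lost (log2 fold change 0.49, FDR 0.106). With Atf3 in the fit, 0 of 8 members had an FDR under 0.05 by edgeR. At an unadjusted p under 0.05 it was also 0 of 8, against 14.7% of all genes. The log2 fold change of Xirp1 was then 0.18 (FDR 0.543), of Csrp3 0.48 (FDR 0.377), of Ankrd2 0.37 (FDR 0.522), of Ankrd1 0.26 (FDR 0.461) and of Flnc 0.09 (FDR 0.752), and over all genes 20 were called in place of 252. Atf3 itself differs between the groups, so this fit removes part of any difference that moves with it.

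**Figure D4:**
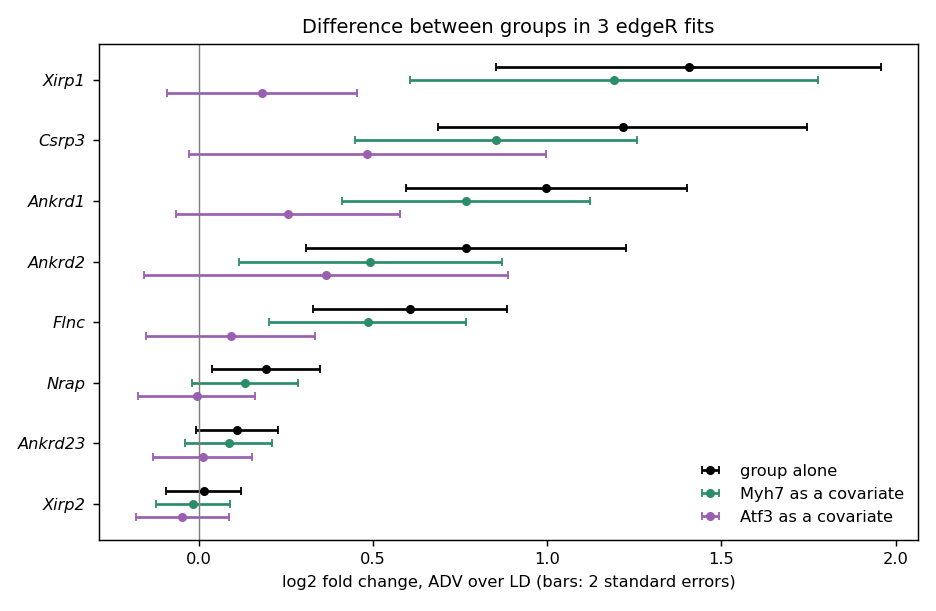
Log2 fold change of ADV over LD for each member (horizontal axis) in an edgeR fit with the group alone (black), with Myh7 as a covariate (green) and with Atf3 as a covariate (purple), with bars of 2 standard errors. Xirp1 is at 1.41 with the group alone, at 1.19 with Myh7 and at 0.18 with Atf3 in the fit.

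Clock genes also moved with the group. Of 6 genes that fall when Bmal1 is high, such as Dbp, 6 were lower in ADV mice at an FDR under 0.05. Of a list of 5 made of Bmal1 and genes that rise with it, 3 were higher at that limit: Bmal1 itself, Cry1 and Nfil3. Sampling ran over several hours of the day, and the sampling hour did not enter the fits. With a score of these clock genes as a covariate the log2 fold changes were 1.38 for Xirp1, 1.38 for Csrp3, 1.04 for Ankrd1, 0.94 for Ankrd2 and 0.75 for Flnc, with wider errors, and 0 members and 0 of all genes had an FDR under 0.05 in edgeR (FDRs of these 5 were 0.186 to 0.295, and 6 members and 12% of all genes had an unadjusted p under 0.05). The part of the phase of the clock in the members' differences was not tested beyond this fit. The slopes on Atf3 were nearly the same with the score added, at 0.54 for Xirp1 and 0.33 for Ankrd1.

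Over the 30 libraries, with group means removed, Ankrd2 and Csrp3 had r = 0.94, Nrap and Flnc 0.88, Xirp1 and Flnc 0.86, Ankrd1 and Xirp1 0.75, Xirp1 and Nrap 0.73, Ankrd1 and Flnc 0.70 and Ankrd1 and Csrp3 0.60. Ankrd23 had its highest r with a member at 0.37, with Csrp3, and Xirp2 at 0.35, with Ankrd1. The 7 pairs named first were those of the 28 with r over 0.6, and over all pairs of genes above 5 FPKM the share was 2.97%. The median was 0.39 for members and 0.04 for all such pairs. These values describe libraries that share depth and composition and carry no test.

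**Figure D5:**
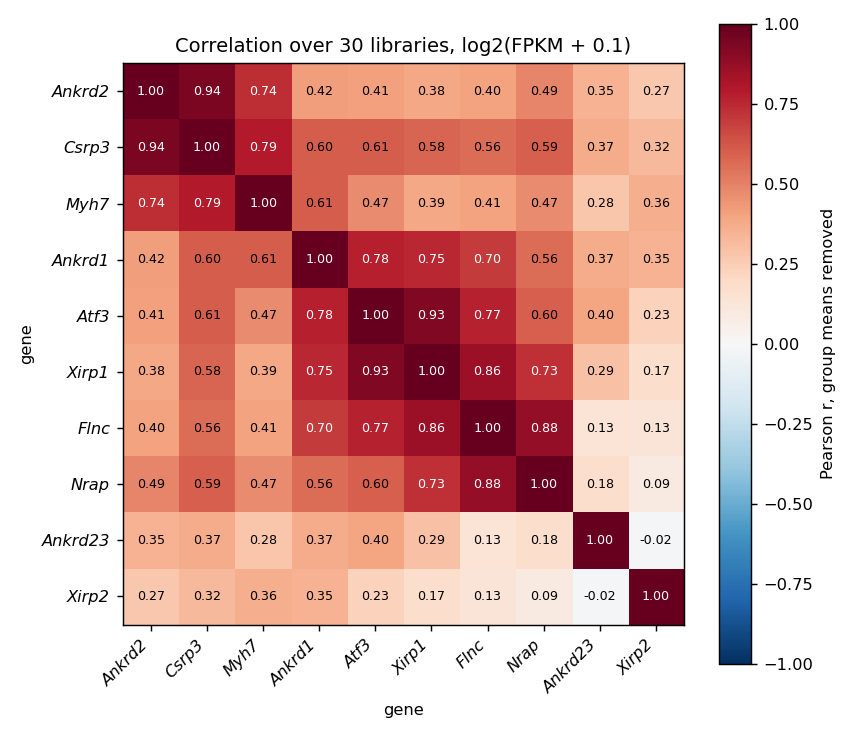
Pearson r between the 8 members, Myh7 and Atf3 on the log2(FPKM + 0.1) scale over 30 libraries after subtracting each group's mean, from -1 (blue) to 1 (red). Ankrd2 and Csrp3 (0.94) lie beside Myh7, Xirp1 (0.93) beside Atf3, and Ankrd23 and Xirp2 have no value above 0.40 with any other gene shown.

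The genes whose within-group pattern was most like each member were listed from 5900 genes above 5 FPKM by the same r. For Ankrd2 they were Csrp3 (0.94), the small heat shock protein gene Hspb7 (0.92), the Z-disc gene Myoz2 (0.89), the slow myosin light chain Myl3 (0.88) and Klhl34 (0.86). Csrp3 shared Hspb7 (0.88) and Klhl34 (0.86) with it and added the LIM domain genes Lmcd1 (0.91) and Pdlim1 (0.86). For Xirp1 they were Atf3 (0.93), Rcan1 (0.87), Gm13889 (0.86), Flnc (0.86) and Srxn1 (0.85), which encodes an antioxidant enzyme. Flnc was most like Usp28 (0.93), a deubiquitinase, and then Nrap, Xirp1, the actin regulator Enah (0.83) and Rapgef1. Nrap had Flnc, Usp28 (0.85), 3425401B19Rik (0.84), Enah (0.75) and Rapgef1 (0.75).

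Ankrd1 was most like Mustn1 (0.81), then the chaperone genes Dnaja4 (0.80) and Hspb1 (0.79), Atf3 (0.78) and Enah (0.77). All 5 were higher in ADV mice, with FDRs under 0.05 by edgeR. Over all genes tested, 1301 of 12030 had an FDR under 0.05 by edgeR, higher or lower. The neighbours of Xirp2 were Atp2b1 (0.85), Sgcd (0.84), Qki (0.82), Dmd (0.81) and Zfp106 (0.81). Of these, 2, Sgcd and Dmd, belong to the dystrophin complex of the costamere. None of the 5 differed between the groups at an FDR under 0.05. Given the share over all genes tested, none of 5 does not set the neighbours of Xirp2 apart from other genes. For Ankrd23 the first was Gm42417 (0.999), which shares its exons, and the next were Polr2e (0.73) and Banf1 (0.68).

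The spread between mice was compared as the mean absolute deviation from the group median. On the log2(FPKM + 0.1) scale 0 of 8 members differed after adjustment over 8, and Flnc alone had an unadjusted permutation p under 0.05 (p 0.0420, adjusted 0.312; SD 0.27 in LD and 0.47 in ADV mice). On linear FPKM, 4 members, Ankrd1, Xirp1, Flnc and Csrp3, were more spread in the ADV group (adjusted permutation p 0.0145 for the first 3 and 0.0188 for Csrp3). These are 4 of the 5 whose level rose, and the result depended on the scale.

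Other genes of the same structures were counted from lists of related genes. Among 14 titin partners 1 was called higher and 0 lower, with a median log2 fold change of 0.05. That gene was Cryab, a small heat shock protein that binds titin, at 545 ± 146 FPKM (SD, n = 14) in LD and 772 ± 171 FPKM (n = 16) in ADV mice (FDR 0.0113), whereas the log2 fold change of Ttn itself was -0.14 (FDR 0.132) and that of Tcap, the most abundant, -0.04 (FDR 0.784). Trim55 was lower by a log2 fold change of -0.12 (FDR 0.0400), under the fold limit. Among 20 Z-disc genes 1 was called, Lmcd1, at a log2 fold change of 0.73 (FDR 0.00688), and the median was 0.09. Csrp1, a relative of Csrp3, had 0.31 (FDR 0.0285), Myot had 0.18 (FDR 0.0367), Nexn had -0.15 (FDR 0.0375), and Actn3, the most abundant, had -0.09 (FDR 0.554).

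Among 12 genes of filamin and its chaperones 3 were called higher and 0 lower, with a median of 0.14. These were Hspb1 with 0.75 (FDR 0.00152) and Hspb7 with 0.51 (FDR 0.0347), both small heat shock proteins, and Bag3, the co-chaperone that directs filamin to autophagy, with 0.38 (FDR 0.00337). Klhl40, which stabilizes thin filament proteins, had 0.32 and an FDR of 0.00384, under the fold limit, and Hspa8, the most abundant of the list, had 0.29 (FDR 0.0103). Flna, a filamin of many other cell types, had 0.16 (FDR 0.366). Among 15 genes of the costamere and myotendinous junction 0 were called by edgeR or DESeq2. By edgeR 3 of them had an unadjusted p under 0.05, against 30.1% of all genes tested. In this list 2 had an FDR under 0.05, Tln2 with -0.17 (FDR 0.0310) and Ilk with 0.14 (FDR 0.0498). The median there was 0.05, and Itgb1bp2, the most abundant, had 0.02 (FDR 0.800).

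Among 16 genes of the YAP, TEAD, SRF and calcineurin responses to load 4 were called higher and 0 lower, with a median of 0.11. Vgll2, a cofactor of TEAD, was at 25.1 ± 10.1 FPKM (SD, n = 14) in LD and 51.1 ± 18.4 FPKM (n = 16) in ADV mice (FDR 0.00152). Rcan1, a target of calcineurin, had a log2 fold change of 1.27 (FDR 0.00251), Ccn1 had 1.13 (FDR 0.00556) and Ccn2 had 0.66 (FDR 0.0395), the last 2 being matricellular targets of YAP. Acta1, the most abundant of the list, had 0.04 (FDR 0.682). Of 7 denervation genes 1 was called, Myog with 0.74 (FDR 0.00377), and of 8 rapidly induced genes 8 were called higher, with a median of 1.24, Atf3 among them.

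Markers of other cells were counted beside these. Of 9 fast fiber genes 0 had an FDR under 0.05 by edgeR or DESeq2 and 1 had an unadjusted p under 0.05 (median log2 fold change 0.03). The lists of tendon (5 tested, median 0.17), satellite cells (2 tested, 0.05), fibroblasts (5 tested, -0.12), leukocytes (4 tested, -0.28), smooth muscle (5 tested, 0.19) and adipocytes (5 tested, 0.52) had 0 genes called by edgeR, and DESeq2 called 1 of smooth muscle and 1 of adipocytes. At an FDR under 0.05 by edgeR but under the fold limit were Fabp4 of the adipocytes with 0.36 (FDR 0.0231), Tagln of smooth muscle with 0.29 (FDR 0.0328) and Pdgfra of the fibroblasts with -0.24 (FDR 0.0194). In the order of the lists given, 1, 0, 3, 0, 2 and 3 of them had an unadjusted p under 0.05 by edgeR. Over all genes tested this share was 30.1%. The smooth muscle list holds Des, at a mean of 1255 FPKM, which was also counted among the Z-disc genes. Its count and median are therefore not of smooth muscle alone. The summed FPKM of the tendon list was 31.8 to 60.9 in LD and 38.0 to 105 in ADV mice, and that of the adipocyte list was 174 to 351 in LD and 187 to 623 in ADV mice. The part of these cells in the members' levels was not tested.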

How the data were processed

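The deposited tables hold raw counts and FPKM of 57186 UCSC known canonical transcripts in 30 libraries. The authors used Trimmomatic for trimming and STAR (2.7.10a in the submitters' processing notes) for mapping to GRCm39, removed reads with a mapping quality under 10 and counted exons with Homer (4.11), without normalization for the raw counts. Homer counts each mate as 0.5 read, so the deposited counts are estimated counts: 14.8% had a fraction, and rounding to whole numbers came before any test. The FPKM values were made by the authors with the same program.

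For a symbol on several rows the longest with a mean over 20 reads was kept. Counts were tested with edgeR 4.0.16 (TMM, quasi-likelihood, R 4.3.3) over 12030 genes, LD against ADV, and with the log2(FPKM + 0.1) of Myh7 or Atf3 centred within groups as a further term. Correlations and spread used 100000 two-sided permutations (scipy 1.17.1, numpy 2.4.6). Alternatives were DESeq2 1.42.0, limma 3.58.1 on log2(FPKM + 0.1) or log2(FPKM + 1), other scaling factors and filters, counts summed per symbol, a GC content trend removed by a spline with 4 degrees of freedom, covariates, the label number as a block and leaving out each library. On simulated counts of 12030 genes with 200 changed by 1 on the log2 scale between LD and ADV, edgeR called 201 genes, 200 of them changed ones. Likewise 200 of 200 simulated slopes of size 1 on Myh7 were recovered, among 205 genes called. The called slopes of the members, and the log2 fold changes of Ankrd1, Ankrd2 and Flnc, were below this size. Recovery at such smaller sizes was not simulated.

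Promoters and starts are RefSeq's, matched to the GRCm39 sequence, and exons and overlaps are from GENCODE vM39. The genes named were the 8 members, Myh7 and Atf3, up to 3 genes of lowest FDR and the most abundant gene of each list, with some relatives, and for each member the 5 genes above 5 FPKM of highest r. The members and all lists were chosen with earlier results of these data known. Each library is from a separate mouse.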

Additional observations from a re-analysis of the deposited data

How the results depend on the processing

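In the other 16 fits of the comparison of LD with ADV, leave-one-out fits aside, Ankrd23, Xirp2 and Nrap were called in none, and Csrp3, Xirp1 and Flnc lost the call in 2, with Atf3 and with the clock score as a covariate. Ankrd1 lost it in 3 and Ankrd2 in 5. The number of genes called was 252, and 20 with Atf3, 151 with Myh7 and 0 with the clock score as a covariate, 167 with the GC content trend removed, 124 by limma on log2(FPKM + 1) and 1301 with no limit on the fold change. The members called were 5, and 0 with Atf3 or the clock score in the fit. Xirp2, near 0, turned to -0.047 with Atf3 and -0.017 with Myh7 as a covariate, and Nrap to -0.0059 with Atf3. Leaving out each library gave 190 to 302 genes and 4 to 5 members. For Xirp2 the log2 fold change then ran from -0.0032 to 0.039.

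Nothing in the labels says whether equal numbers mark paired animals. Same-numbered libraries had correlations of -0.261 to 0.435 (median 0.011), which cannot decide whether they share a litter or a day. With the number as a replicate block over 28 libraries 137 genes and 4 members were called, Ankrd1 not (FDR 0.0558), and without it in the same libraries, a fit added after seeing the data, 151 genes and 4 members, Ankrd2 not (FDR 0.0851). Of 14 LD libraries 3 correlated best with their own number.

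The slope on Myh7 was called for 639 genes, for 168 in LD alone, 131 in ADV alone and, a choice made after seeing the data, for 91 without LD mouse 23 and ADV mouse 24. Members called numbered 3, with 2 in ADV alone (Csrp3 and Ankrd2) and 0 in LD alone. With Atf3 added the slope of Xirp1 on Myh7 was -0.048. The slope on Atf3 was called for 291 genes, 142 in ADV alone and 2 in LD alone. It was called for 5 members, with 4 in ADV alone, 1 in LD alone and 3 with Myh7 added. Of 32 correlations 17 passed after adjustment, and 6 without the 2 farthest libraries. For spread, 0 of 8 members passed on the log2 scale and 4 on linear FPKM. Where a smaller fit lost calls, it also had fewer samples; other causes were not tested. At 20 reads, the minimum for testing, counting error is large, and the lowest member, Ankrd1, had a mean of 454.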
